A study of Rattus norvegicus with 12 samples.

Results

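The difference between the dexamethasone responses of female and male rat hepatocytes was measured gene by gene. For each gene the change from vehicle to dexamethasone in males was subtracted from the change in females, so a positive value means a higher response in females (a larger rise or a smaller fall). All 12 arrays of the series entered this difference, in 4 groups of 3 taken from the sample titles, and 14930 genes had a probe above background on all 12. Hepatocytes, the metabolic cells of the liver, came from Sprague-Dawley rats aged 11 weeks. Collagenase-digested cells were plated in medium with serum and then held in serum-free medium before treatment. The male vehicle and female vehicle groups received 0.01% ethanol for 6 h, and the male and female dexamethasone groups received 100 nM dexamethasone (the labels write "nm") for the same time. No group carried a genetic change, and the labels do not say whether replicates came from separate animals. Every p-value here rests on variation among the 3 arrays of each group or, where replicate pairs are a block, among those pairs. That variation may be technical only.

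Dexamethasone is a synthetic glucocorticoid. It enters the cell and binds the glucocorticoid receptor, encoded by Nr3c1, which then moves to the nucleus, raises transcription of genes with glucocorticoid response elements and lowers that of many inflammatory genes. In liver the receptor is known for driving gluconeogenesis, amino acid breakdown and parts of the circadian programme, and for restraining chemokines. Rat liver is also a classic case of sex-biased expression, set largely by the pattern of growth hormone release.

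Of the 14930 genes, 7 had a difference past an adjusted p of 0.05 (limma's moderated test with Benjamini-Hochberg adjustment), which is 0.0469%. This test did not pair the same-numbered arrays of a sex, and a fit that did, given further down, called 0. The responses of the 7 were higher in females for 4 and lower for 3. The sequences that measured them are shown because these 7 features carry the call and differ in base composition, a property that moved with the difference over all genes (given further down). Each line gives the first 30 of the 60 bases of the probe, as deposited, 5′ to 3′, with G and C in capitals.
Zfp474: CtGtCCCttCCtatCCaCGaGCCtaaatGC
Prok1: aGGaGtGCCaCCCtGGaaGCCaCaaGatCC
XM_345778: atGCtttttCtGtGGatGttttCatGtttt
Mrgprd: GtCCttGtCttCCttaCCtGttCtCtGCCG
Vrk2: GaaCaaGGaaaGtaCGtGaGtattCtGata
RGD1566264_predicted: aaaCaGCatCaaGaaaCtCGGGGttGaCCC
LOC291205: GaaaGatCtttGataGttGaGaaaattCtG
On rat build rn3, as the files give them, the probes lie at chr18:48037571-48037630 (Zfp474), chr2:202670468-202673171 (Prok1), chr7:4259856-4259915 (XM_345778) and chr1:205925749-205925808 (Mrgprd). The others lie at chr14:107295874-107295933 (Vrk2), chr7:142250895-142251092 (RGD1566264_predicted) and chr17:58635646-58635703 (LOC291205). The strand is not in the files' position column, and exon or UTR status is not analysed here.

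The labels were checked first. A separate sex field reads male for all 12 samples, so sex was taken from the titles. Obp3, an odorant-binding protein of male rat liver, ran from 2.93 to 4.26 on the 6 male-titled arrays (levels are log2 signal minus the 75th percentile of the array) and was above background on 0 of the 6 female-titled ones. Cyp2c12, the female-specific P450, was at 0.86 to 2.77 in males and 3.79 to 4.82 in females. All 8 hepatocyte markers were above background on all 12 arrays. The arrays sat on 3 slides of 4, and no slide held all 4 groups. All 3 male vehicle arrays shared slide 1 with the first male dexamethasone replicate. The other 2 male dexamethasone arrays were on slide 2 beside female vehicle replicates 1 and 2, and slide 3 carried the rest. Probes well above background made up 46.0% to 55.7% of those on the male vehicle arrays, 66.5% on male dexamethasone replicate 1 and 72.4% to 80.4% on the other 8. The median SD between arrays of a group was 0.31 and 0.21 log2 units in males (vehicle and dexamethasone) and 0.15 and 0.13 in females. On female vehicle replicate 2, 1 patch of neighbouring spots (rows 231 to 310 and columns 36 to 50 of 532 by 85) stood apart from both other arrays of its group. It held 191 of the 203 probes that lay over 2 log2 units below that group's other arrays. None of the other 11 arrays had such a patch, none of the 7 genes lay in it, and it touched 270 of the genes tested.

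In males 2081 genes passed the threshold (13.9%; 732 or 4.90% rose and 1349 or 9.04% fell) and in females 530 did (3.55%; 340 or 2.28% rose and 190 or 1.27% fell). Both lists held 380 genes, which is 18.3% of the male and 71.7% of the female list. Of these 376 moved the same way (233 rose and 143 fell in both), and 4 moved in opposite directions: Zfp474, XM_345778, Prok1 and Trim17. Among the 380 the response was the larger in females for 198, and the median ratio of the female to the male response was 1.01. The difference between sexes had a median size of 0.21 log2 units in this set, and its 95% confidence interval lay within -1 to 1, that is within a 2-fold difference either way, for 241 of the 380 (63.4%). A call in one sex alone was seldom a called difference: of the 1701 called in males only, 3 had a called difference, and of the 150 called in females only, 1 had. Across genes, which are not independent replicates, the responses correlated with r = 0.655 (Pearson) and 0.492 (Spearman), as a description.

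**Figure D1:**
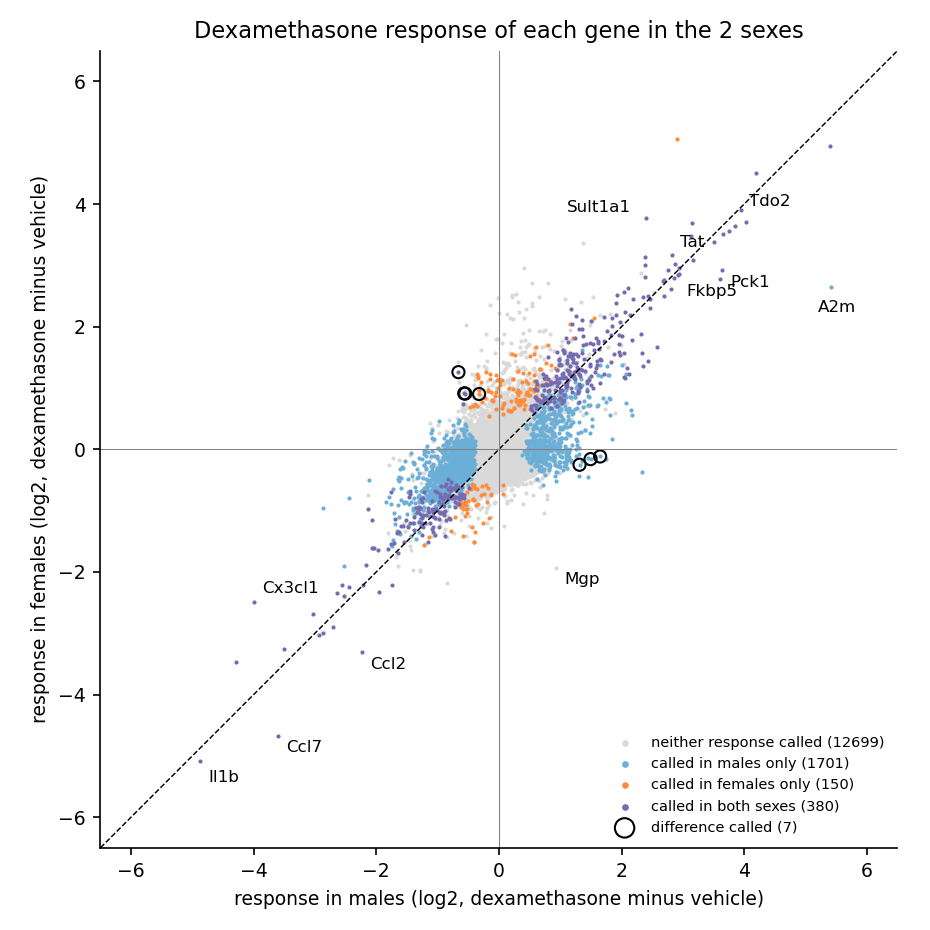
Response of each of the 14930 genes to dexamethasone in males (x axis) and in females (y axis), both in log2 units of dexamethasone minus vehicle, coloured by the sex or sexes in which the response was called. Rings mark the 7 genes with a called difference, which lie off the dashed line of equal response, while Tdo2, Fkbp5 and Il1b lie near it.

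The median 95% half-width of the difference was 0.61 log2 units, and for 9009 genes (60.3%) the whole interval lay within -1 to 1. For these genes a difference of 2-fold or more was outside the interval, and for the others it was not. With the replicate pairs as a block the median half-width was 0.47 and 11560 genes (77.4%) were inside. An unadjusted p under 0.05 was reached by 1544 genes (10.3%), 988 (6.62%) higher and 556 (3.72%) lower in females. The replicate numbers paired the arrays within each sex, and the 7 calls came from a fit without this pairing. With sex and number together as a block, 0 genes passed the adjusted threshold, 2872 had an unadjusted p under 0.05, and the 7 genes were all at an adjusted p of 0.0786. That value was shared with genes not called without the block, among them Ccl7, Atxn2, C9h2orf49 and Ces1d. The paired fit thus did not set the 7 apart. The same block raised the calls to 4188 in males and 1482 in females. With slide as a block, which takes the male response from slide 1 and the female response from slide 3, 0 genes passed for the difference, 274 for the male and 87 for the female response. Without either of female dexamethasone replicates 1 and 2, or without female vehicle replicate 1, the count was 0 as well, and it was 63 without male vehicle replicate 1 and 46 without female vehicle replicate 2.

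The widest difference among the 7 was that of Zfp474, a zinc finger protein gene. Its level was, across male arrays, -2.62, -2.96 and -2.84 without and -3.48, -3.30 and -3.61 with dexamethasone, and across female arrays -4.24, -4.09 and -4.12 without and -2.87, -2.86 and -2.95 with it. The female vehicle arrays were thus below all 9 others, and no array of the treated groups crossed into its own vehicle group. Zfp474 fell by 0.66 ± 0.13 (SE, n = 3 per group) in males and rose by 1.26 ± 0.13 in females. The difference was 1.92 ± 0.19 (95% interval 1.51 to 2.33, adjusted p = 0.00681), a 3.78-fold ratio of the 2 fold changes. It kept its sign in all 29 alternatives that measured it and passed in 21 of them.

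Prok1 encodes prokineticin 1, a secreted ligand of G protein-coupled receptors known for acting on endothelium and smooth muscle. It was, across male arrays, at -2.75, -3.05 and -3.03 without and -3.44, -3.56 and -3.52 with dexamethasone, and across female arrays at -4.03, -3.62 and -3.96 without and -2.86, -3.07 and -2.94 with it. It fell by 0.57 ± 0.14 in males and rose by 0.91 ± 0.14 in females, a difference of 1.48 ± 0.20 (adjusted p = 0.0360). The predicted transcript XM_345778, of unstated function, had the same arrangement of groups. The male arrays were at -2.86, -2.87 and -3.04 without and -3.41, -3.36 and -3.64 with dexamethasone. In females it was at -3.94, -3.81 and -4.08 in vehicle and -2.93, -3.10 and -3.08 in dexamethasone. The difference was 1.46 ± 0.19 (adjusted p = 0.0194).

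Mrgprd, a Mas-related G protein-coupled receptor best known from sensory neurons, was, across male arrays, at -1.95, -2.13 and -2.10 without and -2.35, -2.34 and -2.46 with dexamethasone, and across female arrays at -2.92, -2.75 and -3.08 without and -1.96, -2.01 and -2.08 with it. It rose in females by 0.90 ± 0.12, its male response of -0.32 ± 0.12 did not pass, and the difference was 1.22 ± 0.18 (adjusted p = 0.0430). In all 4 of these genes the female vehicle arrays lay below the other 9, while male vehicle and female dexamethasone lay close together. Their signals were low: averaged over the 12 arrays, Zfp474, XM_345778 and Prok1 were at percentiles 0.53, 0.51 and 0.55 of the genes tested and Mrgprd was at percentile 7.19. All 4 probes were well above background on all 12 arrays, as the filter required.

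**Figure D2:**
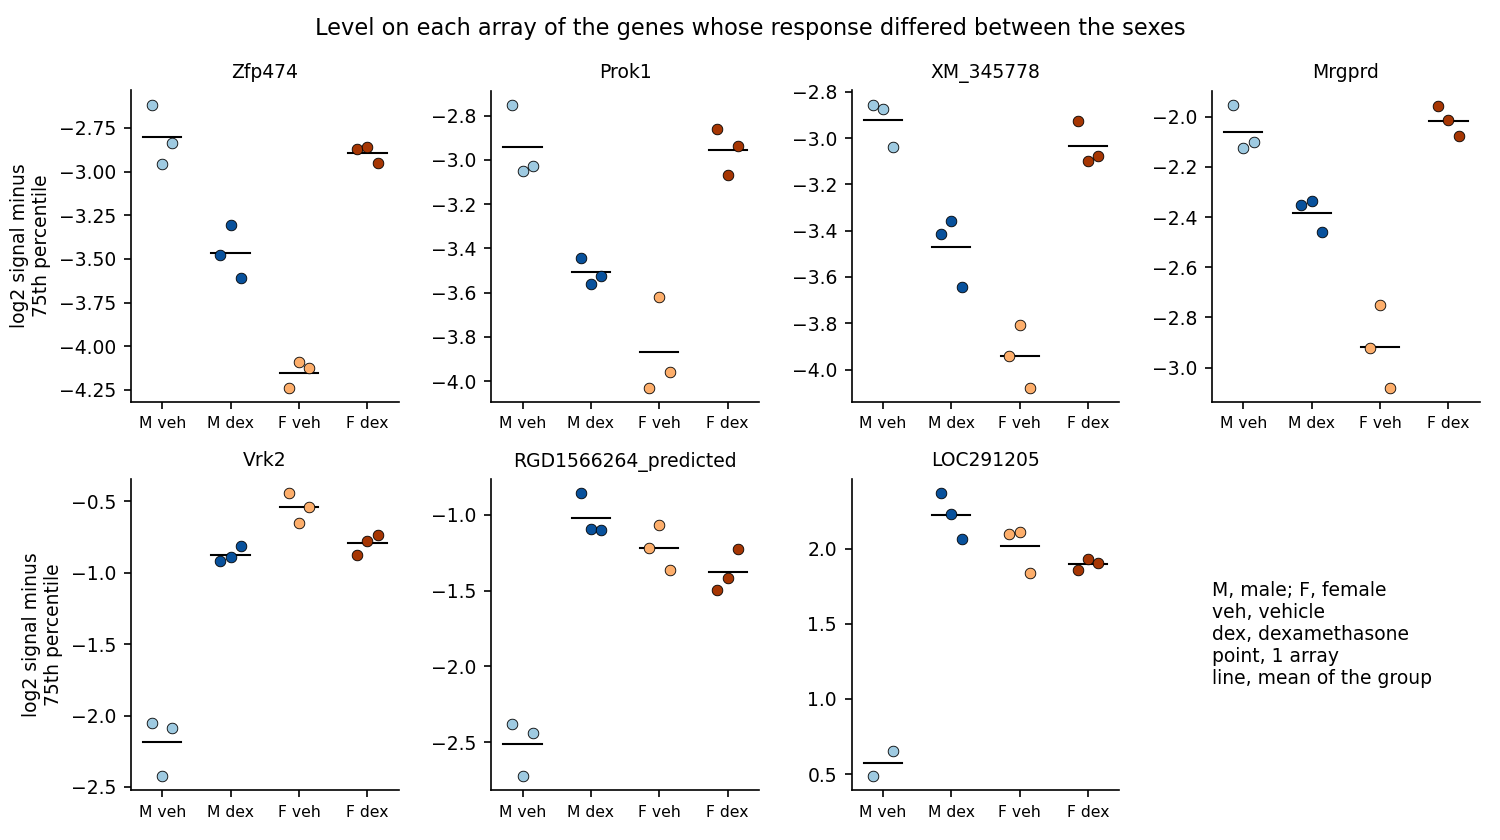
Level on each array, in log2 processed signal minus the array's 75th percentile, of the 7 genes with a called difference, each panel on its own scale. Points are single arrays and lines are group means; the upper row shows 4 genes with low female vehicle arrays, and the lower row 3 genes with low male vehicle arrays, among which LOC291205 lacks male vehicle replicate 2.

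The 3 genes with a lower response in females shared another arrangement: the male vehicle arrays lay below all others. For Vrk2 the female vehicle arrays also lay above all others. Vrk2 encodes vaccinia-related kinase 2, a serine/threonine kinase of the endoplasmic reticulum and nuclear envelope. It was, across male arrays, at -2.05, -2.42 and -2.09 without and -0.92, -0.89 and -0.81 with dexamethasone, and across female arrays at -0.44, -0.65 and -0.54 without and -0.87, -0.78 and -0.74 with it. It rose by 1.31 ± 0.13 in males, its female response was -0.25 ± 0.13 and did not pass, and the difference was -1.57 ± 0.19 (adjusted p = 0.0194). A second Vrk2 probe above background on all arrays gave 0.27 ± 0.17 for the difference, with an unadjusted p of 0.130, so the probes of this gene disagreed.

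The array's annotation calls LOC291205 a gene like that of Hsp60, the mitochondrial chaperonin, and RGD1566264_predicted one like that of ribosomal protein L29. Both descriptions name families with many near-identical copies, so the transcript measured is uncertain. LOC291205 was, across male arrays, at 0.49 and 0.65 (replicate 2 was an outlier spot and left out) without and 2.37, 2.23 and 2.06 with dexamethasone, and across female arrays at 2.10, 2.11 and 1.84 without and 1.86, 1.93 and 1.91 with it. It rose by 1.65 ± 0.15 in males and differed by -1.77 ± 0.20 (adjusted p = 0.0194). RGD1566264_predicted was, across male arrays, at -2.38, -2.72 and -2.44 without and -0.86, -1.10 and -1.10 with dexamethasone, and across female arrays at -1.22, -1.07 and -1.37 without and -1.50, -1.41 and -1.23 with it. It rose by 1.49 ± 0.15 in males and differed by -1.66 ± 0.21 (adjusted p = 0.0194). For both, the 3 groups other than male vehicle overlapped or adjoined each other.

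The female and male sets of 9 array pairs (each dexamethasone array minus each vehicle array of its sex) did not overlap for any of the 7 genes. Each array enters several pairs, and the 7 were chosen by a test on these same arrays. The lack of overlap is thus a description and no separate support. Over all genes the sets of the sexes did not overlap for 999 (6.69%), with the female pairs higher for 665 and lower for 334. Which group stood apart was read off in the same way. The male vehicle arrays lay outside the range of the other 9 for 12.2% of all genes, against 5.02% for male dexamethasone, 6.18% for female vehicle and 4.56% for female dexamethasone. Among the 988 genes with a positive difference at an unadjusted p under 0.05, the male vehicle arrays were above all others for 509 (51.5%). Among the 556 with a negative difference they were below all others for 301. Over all 14930 genes they were above all others for 1326 and below for 495. The difference is computed with the male vehicle arrays, so its sign sets in part the side on which they fall. The male vehicle arrays are those of slide 1 with the fewest probes above background. The part of slide or signal in these differences was not tested beyond the block given above.

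The difference also moved with the base composition of the probe. In 5 bins of rising G and C content its median was -0.02, 0.05, 0.11, 0.18 and 0.26 log2 units. The median male response went along the same bins from -0.04 to -0.22, and the female response went from -0.08 to 0.03. Across the 14930 genes the rank correlation with probe G and C content was 0.281 for the difference, -0.155 for the male response and 0.131 for the female response. Genes with an unadjusted p under 0.05 had probes of 48.8% G and C on average where the difference was positive and of 40.2% where it was negative. Among the 7 genes the content ran from 35.0% in LOC291205 to 51.7% in Prok1. With each array's trend on base composition removed, 5 genes passed, all among the 7. The part of base composition in any single gene's difference was not tested.

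**Figure D3:**
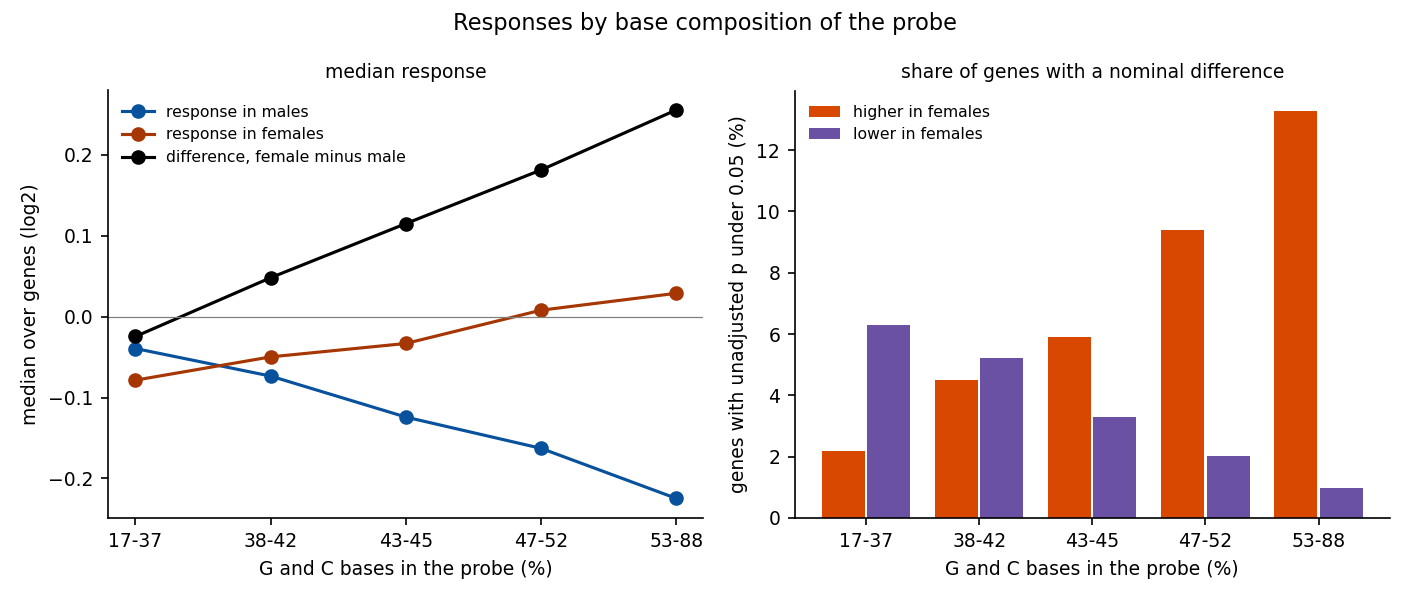
Left, median response to dexamethasone in males, in females and their difference (log2 units) in 5 bins of the G and C content of the probe (percent). Right, share of the genes of each bin (percent) whose difference had an unadjusted p under 0.05, split by direction; the difference rises from -0.02 to 0.26 along the bins.

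By the rule for named genes, 16 further genes with the smallest p were followed although they did not pass. C9h2orf49 was the closest, with a difference of -1.20 ± 0.19 (adjusted p = 0.061), while its second probe gave -0.24 ± 0.27. It was at -0.32, -0.48 and -0.36 in male vehicle and between 0.61 and 1.05 on the other 9 arrays. Scaf11, a splicing-associated factor, differed by -1.20 ± 0.19 (-0.78 ± 0.35 by its second probe), and Atxn2, which encodes the RNA-binding protein ataxin-2, by -1.27 ± 0.20. Pnpt1, the mitochondrial polynucleotide phosphorylase, differed by -0.96 ± 0.17. Positive values included Fdx2, a mitochondrial ferredoxin of iron-sulphur cluster assembly, at 1.01 ± 0.19 (0.33 ± 0.16 by its second probe), and Lrp8, a receptor for apolipoprotein E and reelin, at 1.10 ± 0.21. Tsen34, a subunit of the tRNA splicing endonuclease, was at 0.95 ± 0.18. Tmem165, a Golgi membrane protein needed for glycosylation, was at 1.33 ± 0.21 (male dexamethasone replicate 1 left out), but its second probe gave -1.34 ± 0.44. In all 16 the male vehicle arrays stood outside the range of the other arrays with a value, against 12.2% of all genes. The 16 were picked by the p of a contrast that holds this group, so the count is not separate evidence. Trim17, a ubiquitin ligase, was the fourth gene called in both sexes with opposite signs. It fell by 0.59 ± 0.17 in males, rose by 0.74 ± 0.17 in females, and differed by 1.33 ± 0.24 (adjusted p = 0.0835).

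Of 29 tested genes that glucocorticoids are known to induce, 17 rose in males (4.90% of all genes did) and 16 in females (2.28% of all genes), none fell, and the difference had a median of -0.04 log2 units, against 0.12 over all genes. That median was -0.12 to 0.01 under the other 3 scalings, so its sign depended on the scaling. Under normexp background it was 0.05. For 8 of the 29 the interval lay within -1 to 1 (18 with the replicate pairs as a block). None of the 26 gene lists, nor the hepatocyte markers, had a member with a called difference, where 0.0469% of all genes had one, so a count of 0 in lists of this size is near the background. Fkbp5, an immunophilin that dampens the receptor, was, across male arrays, at 0.94, 1.00 and 0.80 without and 3.75, 4.24 and 3.54 with dexamethasone, and across female arrays at 0.25, 0.39 and 0.10 without and 3.09, 3.17 and 3.03 with it. It rose by 2.93 ± 0.17 in males and 2.84 ± 0.17 in females, and the difference was -0.08 ± 0.24 (interval -0.62 to 0.45). Female levels of Fkbp5 were below male levels in both treatments, so the sexes differed in level while the changes were of like size.

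Intervals for several other induced regulators lay within a 2-fold difference. Lpin1, a phosphatidate phosphatase and transcriptional coregulator, rose by 3.16 ± 0.20 in males and 3.09 ± 0.20 in females, with an interval for the difference of -0.70 to 0.54. Klf9, a zinc finger repressor, rose by 2.47 and 2.31 (interval -0.72 to 0.39), and Errfi1, an inhibitor of the epidermal growth factor receptor, by 1.08 and 1.07 (interval -0.43 to 0.42). Per1, a repressor of the circadian clock, rose by 1.25 and 1.28 (interval -0.73 to 0.79). For these 4 genes a 2-fold difference was outside the interval. Wider intervals applied to Igfbp1, which binds insulin-like growth factors and rose by 3.75 and 3.56 (interval -1.86 to 1.49, or -1.12 to 0.76 with the replicate pairs as a block), and to Dusp1, a phosphatase of MAP kinases, whose responses of 0.86 and 1.29 passed in neither sex. Nr3c1, the receptor itself, had responses of 0.67 ± 0.28 and 0.27 ± 0.28, neither of which passed, and a difference of -0.40 ± 0.39.

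Some induced genes had larger values for the difference that did not pass. Tsc22d3, which encodes the anti-inflammatory protein GILZ, was at 3.23, 3.12 and 2.63 in male vehicle and 2.17, 1.86 and 1.94 in female vehicle, and at 3.69 to 4.60 on the 6 dexamethasone arrays. It rose by 1.31 in males and 1.96 in females, a difference of 0.64 ± 0.29 (adjusted p = 0.470), while its second probe gave 0.28 ± 0.23. The vehicle groups did not overlap and the dexamethasone groups did. Ddit4, an inhibitor of mTORC1, rose by 1.19 and 2.05 (difference 0.86 ± 0.30, adjusted p = 0.357). Sgk1, a kinase that controls sodium channels, rose by 2.06 and 1.17 (difference -0.89 ± 0.38, adjusted p = 0.443). Sult1a1, a phenol sulphotransferase, rose by 2.39 and 3.78, with male vehicle spread from 1.17 to 3.46, and the difference of 1.38 ± 0.65 had an adjusted p of 0.493. Klf15, which promotes amino acid breakdown, rose by 2.38 and 3.01 (difference 0.63 ± 0.34).

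**Figure D4:**
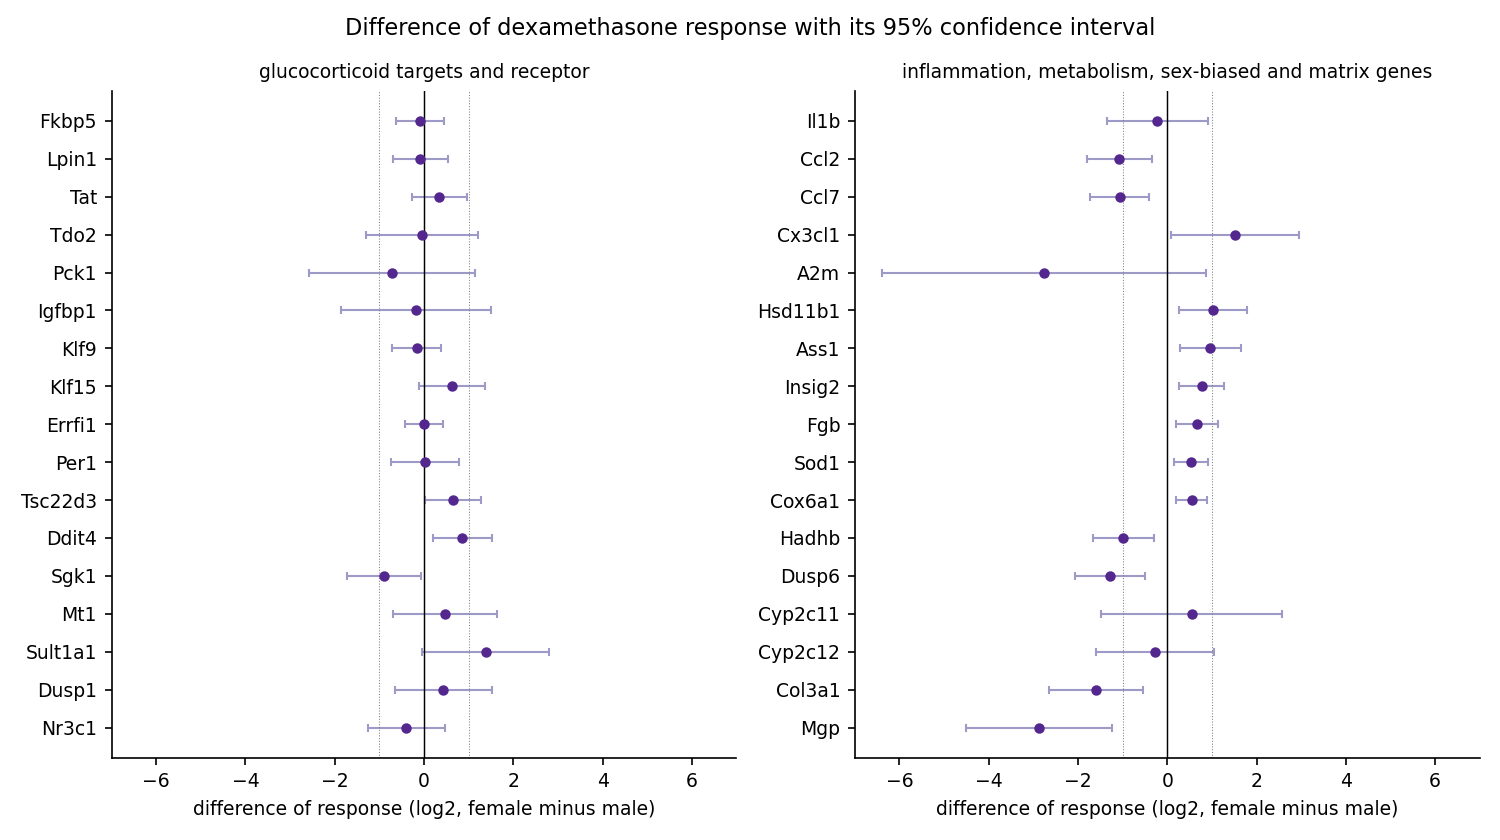
Difference of the dexamethasone response (log2 units, female minus male) with its 95% confidence interval for genes named in the text, left for glucocorticoid targets and the receptor and right for other groups. Dotted lines mark a 2-fold difference either way; the intervals of Fkbp5, Lpin1, Klf9, Errfi1 and Per1 lie between them, and that of A2m spans -6.40 to 0.88.

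Among 28 tested genes for glucose production and the breakdown of amino acids, 8 rose in males and 10 in females, against 4.90% and 2.28% of all genes, with a median difference of 0.13. Tat, tyrosine aminotransferase, a classic hepatic glucocorticoid target, was, across male arrays, at 1.61, 1.46 and 1.48 without and 4.11, 4.77 and 4.15 with dexamethasone, and across female arrays at 0.90, 1.13 and 1.52 without and 4.27, 4.37 and 4.40 with it. It rose by 2.82 ± 0.20 and 3.16 ± 0.20, and the difference of 0.34 ± 0.28 had an interval of -0.28 to 0.95. Tdo2, tryptophan dioxygenase, rose by 3.94 ± 0.40 and 3.90 ± 0.40 (interval -1.29 to 1.21, or -0.59 to 0.50 with the pairs as a block). Pck1, the cytosolic PEPCK of gluconeogenesis, rose by 3.63 ± 0.60 and 2.93 ± 0.60, and its interval of -2.57 to 1.15, or -1.54 to 0.13 with the pairs as a block, allows differences of either sign. Ass1, argininosuccinate synthase of the urea cycle, rose in females by 1.28 ± 0.22 and had a male response of 0.32 ± 0.22, but the difference of 0.96 ± 0.31 did not pass (adjusted p = 0.322). Kynu, a kynurenine hydrolase, had the largest value in this list at 1.91 ± 1.92, and its probe lay in the patch of female vehicle replicate 2; with the patch set to missing the difference was -0.36 ± 0.27. G6pc1, glucose-6-phosphatase, was above background on 11 of the 12 arrays and was not tested.

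Enzymes and chaperones that handle steroids gave 2 higher and 0 lower values at an unadjusted p under 0.05 among 18 genes, where 6.62% and 3.72% of all genes did. Hsd11b1, which regenerates active glucocorticoid from its inert keto form, was, across male arrays, at 5.37, 5.94 and 5.56 without and 5.97, 6.57 and 5.85 with dexamethasone, and across female arrays at 4.09, 3.88 and 3.36 without and 5.34, 5.50 and 5.08 with it. It rose in females by 1.53 ± 0.24, the male response of 0.51 ± 0.24 did not pass, and the difference was 1.02 ± 0.35 (adjusted p = 0.337), while its second probe gave 0.65 ± 0.53. The female vehicle arrays were the lowest of the 12. Hsp90ab1, a chaperone that holds the receptor ready for ligand, differed by 0.49 ± 0.21.

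Of 27 inflammatory genes tested, 16 fell in males and 11 in females, against 9.04% and 1.27% of all genes. The difference had a median of 0.18, which was 0.10 to 0.23 under the other 3 scalings and -0.0046 under normexp background, so its sign depended on the processing. Il1b, the cytokine interleukin 1 beta, was, across male arrays, at 0.81 and 1.08 (replicate 2 left out) without and -3.91, -3.18 and -4.69 with dexamethasone, and across female arrays at 1.59, 1.98 and 1.21 without and -3.80, -3.27 and -3.42 with it. It fell by 4.87 ± 0.38 in males and by 5.09 ± 0.34 in females, and the difference was -0.22 ± 0.51, or 0.15 ± 0.34 with the replicate pairs as a block, which drops the second male pair. The monocyte-attracting chemokines Ccl2 and Ccl7 had the largest negative differences of the list. Ccl2 was, across male arrays, at 5.96, 7.01 and 6.59 without and 4.17, 4.26 and 4.44 with dexamethasone, and across female arrays at 6.29, 6.36 and 6.19 without and 2.65, 3.14 and 3.13 with it. The female dexamethasone arrays were the lowest, the vehicle groups overlapped, and the difference of -1.08 ± 0.33 did not pass (adjusted p = 0.293). With the replicate pairs as a block the interval of Ccl2 was -1.72 to -0.44 (adjusted p = 0.139).

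Ccl7 was, across male arrays, at 3.16, 3.79 and 3.40 without and -0.33, 0.14 and -0.27 with dexamethasone, and across female arrays at 3.83, 3.93 and 4.47 without and -0.74, -0.60 and -0.44 with it. In males it fell by 3.60 ± 0.22 and in females it fell by 4.67 ± 0.22, a difference of -1.07 ± 0.30 (adjusted p = 0.249), while its second probe gave -0.41 ± 0.47. With the replicate pairs as a block the first probe had an interval of -1.46 to -0.68 (adjusted p = 0.0786). Cx3cl1, the membrane-bound chemokine fractalkine, fell in both sexes, and its difference of 1.52 ± 0.65 (adjusted p = 0.452) was positive, with vehicle levels of 3.85 to 5.65 in males and 1.03 to 2.02 in females. Its interval with the pairs as a block was 0.62 to 2.41 (adjusted p = 0.139). Macrophages of the liver, the Kupffer cells, also make these cytokines, and 17 of their 18 markers on the array were above background on all 12 arrays. The markers' summed signal, in multiples of the array's 75th percentile, was 66.1 to 132 in male vehicle, 77.1 to 149 in male dexamethasone, 76.8 to 153 in female vehicle and 89.4 to 187 in female dexamethasone. These ranges overlap, and in bulk RNA fewer cells of a type and less RNA per cell cannot be told apart. None of the 17 Kupffer markers tested had a called response in either sex, where 13.9% of all genes did in males and 3.55% in females. The interval of the difference lay within -1 to 1 for only 1 of the 17, so a response of these markers is not excluded. The largest difference in size was that of Csf1r, the receptor for colony-stimulating factor 1, at -0.60 ± 0.50. The level of Csf1r, 1 marker of the 17, was -1.62 to -0.54 on the male arrays and -0.19 to 1.29 on the female ones. Unlike the sums, its levels did not overlap between the sexes. The markers' part in the chemokine values was not tested.

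Of 32 acute phase and plasma protein genes, 3 were higher and 0 lower at an unadjusted p under 0.05, where 6.62% and 3.72% of all genes were, with a median difference of 0.21 that became -0.10 under quantile scaling. Fgb, the fibrinogen beta chain, fell in males by 0.73 ± 0.15 and had a female response of -0.06 ± 0.15 (difference 0.66 ± 0.22, adjusted p = 0.320), while its other probes gave 0.45 ± 0.37 and -0.84 ± 1.34. A2m, alpha-2-macroglobulin, the main acute phase protein of the rat, was, across male arrays, at 2.45, 2.59 and -2.36 without and 6.92, 7.83 and 4.16 with dexamethasone, and across female arrays at 5.06, 5.25 and 4.96 without and 7.64, 7.73 and 7.85 with it. The third replicates of both male groups were far below the other male arrays. A2m rose in males by 5.41 ± 1.17, its female response was 2.65 ± 1.17, and the interval of the difference, -6.40 to 0.88, held both signs. With the replicate pairs as a block, the male pairs rose by 4.48, 5.24 and 6.52 and the female pairs by 2.58, 2.48 and 2.89. The interval under this block was -3.83 to -1.69 (adjusted p = 0.0801). Ttr, transthyretin, had the largest positive value of the list at 1.80 ± 1.08, which was 0.59 ± 0.39 with the patch set to missing.

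In lipid metabolism Insig2, which retains the sterol sensor SCAP in the endoplasmic reticulum, fell by 1.44 ± 0.16 in males and by 0.68 ± 0.16 in females (difference 0.77 ± 0.23, adjusted p = 0.277). Hadhb, the thiolase subunit of the mitochondrial trifunctional protein, rose in males by 0.97 ± 0.22 with a female response of -0.01 ± 0.22 (difference -0.99 ± 0.31, adjusted p = 0.300). Of 26 fatty acid oxidation genes 2 were higher and 2 lower at an unadjusted p under 0.05, and of 32 synthesis genes 2 were higher and 0 lower, against 6.62% and 3.72% of all genes. Among 33 drug metabolism genes, 4 rose in each sex, against 4.90% of all genes in males and 2.28% in females. The difference was positive for 26, against 62.9% of all genes, with a median of 0.30 (0.21 to 0.35 under the other scalings). Por, the reductase that supplies electrons to P450 enzymes, rose by 0.61 ± 0.15 and 1.11 ± 0.15 (difference 0.50 ± 0.21, adjusted p = 0.448).

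Among the 36 subunits of oxidative phosphorylation tested, the interval lay within -1 to 1 for 31. At an unadjusted p under 0.05 the difference was positive for 6 and negative for 2. Over all genes these shares were 6.62% and 3.72%. In males 4 fell and 1 rose, which is near the 9.04% and 4.90% of all genes, and no female response was called. Cox6a1, a subunit of cytochrome c oxidase, was at 8.48, 8.23 and 8.37 in male vehicle and between 7.68 and 7.85 on the other 9 arrays. It fell by 0.55 ± 0.11 in males, its female response was -0.01 ± 0.11, and the difference was 0.55 ± 0.16 (adjusted p = 0.261). Sod1, the cytosolic superoxide dismutase, had the same arrangement, at 8.05, 8.05 and 7.87 in male vehicle and 7.33 to 7.74 elsewhere (difference 0.53 ± 0.17, adjusted p = 0.323). A second Sod1 probe gave 0.54 ± 0.16. For both genes the male vehicle arrays alone stood above the rest.

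**Figure D5:**
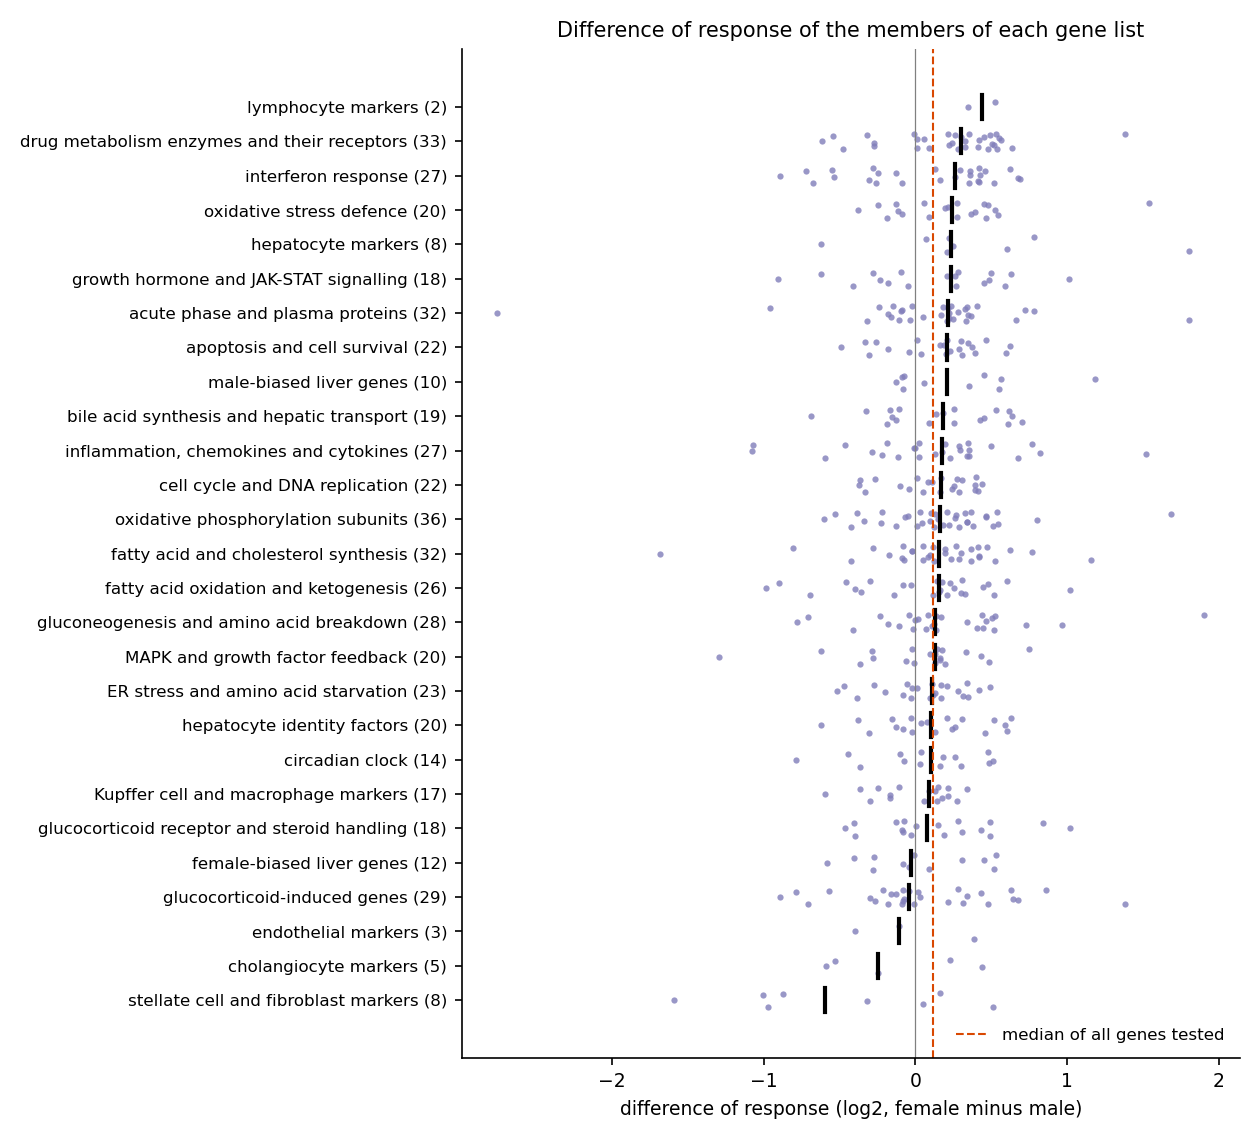
Difference of response (log2 units, female minus male) of each tested member (points) of the gene lists and of the hepatocyte markers, with the median of each list (black bar) and the number tested in brackets. The dashed line is the median of all 14930 genes, 0.12; the bars run from -0.60 for stellate cell and fibroblast markers to 0.44 for the 2 lymphocyte markers.

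Genes known for sex-biased expression in rat liver were followed next. Of 10 male-biased genes tested, 1 rose in each sex, and of 12 female-biased genes, 2 rose and 1 fell in males and 1 rose in females. Over all genes 4.90% rose and 9.04% fell in males, and 2.28% rose in females. Ces1d, a carboxylesterase, had the largest difference of the male-biased list, 1.19 ± 0.78 (adjusted p = 0.645), and 6 of the 10 were positive. With the replicate pairs as a block the interval of Ces1d was 0.81 to 1.56 (adjusted p = 0.0786). Cyp2c11, the male-specific P450, was, across male arrays, at 1.53, 0.06 and 1.80 without and 0.94, -0.49 and 1.42 with dexamethasone, and across female arrays at -2.12, -1.14 and -0.31 without and -2.09, -1.12 and -0.23 with it. Within each sex the same replicate number was high or low in both treatments, and the difference of response was 0.55 ± 0.92 (interval -1.48 to 2.58). With the replicate pairs as a block it was 0.55 ± 0.15 (interval 0.21 to 0.89, adjusted p = 0.143). The male pairs were at -0.59, -0.55 and -0.38 and the female pairs at 0.03, 0.03 and 0.08. Cyp2c12 differed by -0.27 ± 0.60 (interval -1.59 to 1.05), or -0.65 to 0.11 with the pairs as a block. Stat5b, which relays growth hormone signals, had responses of -0.39 ± 0.14 and 0.06 ± 0.14, neither called, and a difference of 0.45 ± 0.20.

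Markers of stellate cells and fibroblasts, the matrix-producing cells of the liver, had the lowest list median, -0.60 over 8 tested genes (-0.69 to -0.55 under the other 3 scalings), with no member called for the difference. Of the 8, 5 were negative (Col3a1, Col1a2, Sparc, Col1a1 and Tagln) and 3 positive (Reln at 0.51 ± 0.44, Timp1 at 0.16 ± 0.32 and Des at 0.05 ± 0.50). Tagln, at -0.32 ± 0.80, lacked male vehicle replicate 1. With the replicate pairs as a block, which drops the first male pair, Tagln was at 0.10 ± 0.16. The list median lies midway between Tagln and Col1a1 (-0.87), so it depends on this gap. Col3a1, a fibrillar collagen, was, across male arrays, at -2.02, -2.43 and -1.58 without and -0.67, -1.66 and -1.34 with dexamethasone, and across female arrays at 0.87, 0.53 and -0.23 without and -0.32, -0.09 and -0.84 with it. Its difference was -1.60 ± 0.48 (adjusted p = 0.283), and all 6 female arrays were above 5 of the 6 male arrays. With the replicate pairs as a block its interval was -2.30 to -0.89 (adjusted p = 0.0904). Under that block the intervals of Col1a2, Sparc and Col1a1 were also negative throughout. That of Reln was positive throughout (0.14 to 0.88), and those of Tagln, Timp1 and Des held both signs. Mgp, matrix Gla protein, an inhibitor of calcification made by connective tissue, had the most negative difference of all genes tested, -2.87 ± 0.75 (interval -4.50 to -1.23), and did not pass (adjusted p = 0.203). It was, across male arrays, at -1.92, -0.46 and -1.43 without and 0.22, -0.03 and -1.20 with dexamethasone, and across female arrays at 1.92, 2.30 and 0.83 without and -0.43, 0.59 and -0.90 with it. The female vehicle arrays were the highest, and the other 3 groups overlapped. With the replicate pairs as a block the interval of Mgp was -3.99 to -1.74 (adjusted p = 0.0801). Its male pairs were at 2.14, 0.43 and 0.23 and its female pairs at -2.35, -1.71 and -1.72. The summed signal of the 16 markers on the array was 97.3 to 239 in male vehicle, 128 to 223 in male dexamethasone, 211 to 265 in female vehicle and 177 to 245 in female dexamethasone, and Lum was above background on none. The part of such cells in these values was not tested.

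Size alone did not mark the called genes. A difference of 2 log2 units or more in size was found for 17 genes (353 genes, 2.36%, reached 1 or more), and none of the 17 passed. Of these, 11 lay in the patch of female vehicle replicate 2, among them Abl1, a tyrosine kinase, at 2.56 ± 2.29, and Apoe, apolipoprotein E, at 2.09 ± 1.09. Apoe was at 8.35, 4.50 and 8.31 in female vehicle. With the patch set to missing, none of the 11 remained at 2 or more. Abl1 was then at -0.15 ± 0.35 and Apoe at 0.82 ± 0.22 (adjusted p = 0.209). The 270 genes of the patch had a median difference of 0.58 with it and -0.24 without it, and 7 genes passed in either case, the same 7.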

How the data were processed

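Agilent 1-colour rat arrays of 12 hepatocyte samples were read from the deposited scanner files. Per the file headers the intensity values were extracted by the authors' Agilent Feature Extraction 9.5.3.1 (9.5 in the submitters' processing notes), with positions on build rn3. The processed signal was taken to log2, minus each array's 75th percentile. Control spots and outlier spots were left out. Probes well above background on all 12 arrays were kept (17690 of 41012 before the loss of outlier spots, 17677 after), and each of the 14930 genes was read from its kept probe of highest mean signal. limma 3.58.1 in R 4.3.3 fitted the 4 groups (lmFit, eBayes, Benjamini-Hochberg), and the difference was a contrast, so every adjusted p in the report is limma's. The method was tested on simulated data. RefSeq tables named 10759 probes by accession, 5479 by symbol, 3678 by an older symbol and 1177 by gene number, and 19919 kept the file's name.

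The genes and lists were chosen with earlier results of these data known. Followed by rule were the called genes, those of smallest p up to 10 per direction, the list member of smallest p, and 20 fixed genes. Of the fixed genes, Zbtb16, G6pc1, Ppara and Cyp7a1 were not tested. Not every gene followed by rule is printed in the text. Trim17 is among those of smallest p. Apoe, Abl1, Ttr, Kynu, Mgp, Cx3cl1, Sgk1, Sult1a1, Klf9, Klf15, Errfi1 and Hsp90ab1, the stellate cell markers other than Col3a1, and the genes of the closing section other than Tnfrsf1a, Dusp6 and Bst2 that were not called for the difference, were named after their values were seen.

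Deviations from the group means of same-numbered vehicle and dexamethasone arrays correlated at 0.352 to 0.598 within each sex, and every such pair was positive, so the numbers from the titles were taken as pairs. Alternatives were other scalings, background corrections, filters, slide and replicate blocks, array weights, the series' value table (540216 of 540216 values equal to the scanner files' signals), each array left out, and, chosen after seeing the data, removal of the probe base composition trend and of the patch of spots.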

Additional observations from a re-analysis of the deposited data

Results flagged for a closer look

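In 7 genes the test of the difference itself, the contrast of the female and the male response, passed an adjusted p of 0.05 (limma, arrays not paired). The difference, female minus male in log2 units, was 1.92 for Zfp474, 1.48 for Prok1, 1.46 for XM_345778 and 1.22 for Mrgprd. It was -1.77 for LOC291205, -1.66 for RGD1566264_predicted and -1.57 for Vrk2. The 7 kept their sign in all alternatives that measured them. The alternatives are refits of the same arrays or of part of them, so the kept sign is no separate support. The number of alternatives in which each passed was 21 for Zfp474, 17 for Vrk2, RGD1566264_predicted and XM_345778, 16 for LOC291205, 13 for Prok1 and 10 for Mrgprd. A second Vrk2 probe, above background on all arrays, had the opposite sign, at 0.27 ± 0.17 (unadjusted p = 0.13, limma).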

How the results depend on the processing

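Against 7 called differences, 30 alternatives gave fewer in 18 and more in 9. Scaling on probes above background on all arrays gave 11, quantile scaling 10 and the array median 7. Normexp background gave 0 (1901 genes at an unadjusted p under 0.05). Requiring background in 1 group only gave 28 of 26515 genes, no filter 6676 of 35505, and the upper part of the signal range 1. Slide as a fixed block gave 0 (964 unadjusted) and as a random block 103, at an estimated correlation of -0.12. The replicate block of sex by number, which follows the pairing, gave 0 (2872 unadjusted), and 0 again with the base composition trend removed (2521 unadjusted) or the patch set to missing (2993 unadjusted). A replicate block on the number alone gave 3. Without the block, the trend removal gave 5 and the patch removal 7; these were chosen after seeing the data. Leaving out 1 array gave 0 to 63 calls. The male response had 2081 calls, 274 with the slide and 4188 with the replicate block. The female response had 530, 87 and 1482. The causes of these changes were not tested. Without a filter 6285 of the 6676 calls were positive.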

Other observations

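Other gene lists held no member with a called difference. Of 22 apoptosis genes, 9 fell in males (9.04% of all genes did), among them the caspases Casp2, Casp6, Casp8 and Casp9, and Apaf1, the scaffold of the apoptosome, fell in both sexes. It was the 1 member to fall in females (1.27% of all genes did). Bcl2l1, an anti-apoptotic protein, and Birc2, an inhibitor of apoptosis, rose in both sexes (4.90% of all genes did in males and 2.28% in females). The smallest p of the difference in this list was that of Tnfrsf1a, a receptor of tumour necrosis factor, at 0.63 ± 0.20 (adjusted p = 0.319, n = 3 per group, limma). Its male vehicle arrays read 5.36, 5.37 and 5.22, and the other 9 read 4.48 to 4.90.

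Of 20 genes of MAP kinase and growth factor feedback, 2 rose and 4 fell in males, and 2 rose and 2 fell in females. Over all genes 4.90% rose and 9.04% fell in males, and 2.28% rose and 1.27% fell in females. Errfi1 and Egfr rose and Fosl1 and Atf3, immediate early transcription factors, fell in both sexes, while Dusp5 and Ier2 fell in males. Dusp6, a phosphatase of ERK, had responses of 0.55 ± 0.26 and -0.74 ± 0.24, neither called, and a difference of -1.29 ± 0.35 (adjusted p = 0.244). Male vehicle replicate 3 was left out for Dusp6, and the other 2 arrays of that group read 2.13 and 3.00. Of 19 bile acid and transport genes, 1 rose and 2 fell in males, near the shares of all genes, and 1 rose and 1 fell in females. Among them Cyp27a1, a sterol hydroxylase, rose and Abcc4, an efflux pump, fell in both sexes. Of 27 interferon response genes, 3 fell in males (Irf1, Rsad2 and Bst2), near the share of all genes, and none was called in females (3.55% of all genes were). Of these Bst2 had a difference of 0.69 ± 0.26. A call in males without one in females is not a tested difference, and the lists' medians of the difference were 0.21 (apoptosis), 0.13 (MAP kinase), 0.18 (bile acid) and 0.26 (interferon), against 0.12 over all genes. Under normexp background the MAP kinase median was -0.05 and the interferon median 0.14, and under quantile scaling they were 0.03 and 0.09, so the MAP kinase sign depended on the processing.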
